A study of Mus musculus with 6 samples.

Results

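The genes described here are 10 genes that respond to bone morphogenetic proteins (BMPs) or take part in that response: Id1, Id2, Id3, Id4, Msx1, Msx2, Bmp4, Smad6, Smad7 and Bambi. They were found by gene name on Agilent mouse expression arrays, where 11 of 55681 probes, and 10 of 35527 gene names, belong to them, because Bmp4 has 2 probes. The arrays measured RNA of 3T3 cells, an immortal fibroblast line from mouse embryos, 48 h after transfection with 50 nM GapmeR Ntep or 50 nM GapmeR control. A GapmeR is a short antisense oligonucleotide through which RNase H cuts a chosen transcript, here the long noncoding RNA Ntep, and the control GapmeR is a negative-control sequence. All cells came from the same line, grew in the same medium with serum and received a GapmeR. An untransfected group was not analysed here. The 3 independent experiments each gave 1 culture and 1 array per GapmeR, and only 1 GapmeR against Ntep was profiled. The dose is given as 2 × 50 nM in the study's sample records.

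BMPs are secreted ligands that bind paired type I and type II receptor kinases on the cell surface. The activated type I receptor phosphorylates Smad1, Smad5 and Smad9, which join Smad4, enter the nucleus and bind the regulatory DNA of target genes. The Id genes are the best known direct targets. Their proteins bind basic helix-loop-helix (bHLH) transcription factors and keep them off DNA, which holds back differentiation in many lineages. Msx1 and Msx2 are homeobox transcription factors of mesenchyme that also respond to BMPs. Smad6, Smad7 and Bambi are part of a negative feedback loop, since the pathway induces them and they then dampen its receptors or its Smads. Serum, which was present in the medium here, contains BMP activity and induces Id genes in cultured cells.

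For the genes whose values carry the results below, the promoter is printed as RefSeq gives it for GRCm38.p6. Each line runs 5′ to 3′ on the strand of the gene, from 250 bases before the annotated start to 50 bases after it. For Smad6 that start lies somewhat inside the gene, whose outermost annotated 5′ end is chr9:64022085. Capitals mark 2 motifs, both searched on both strands: GGCGCC, a GC-rich element bound by BMP Smads, and CAGAC, a core of Smad binding elements, which reads GTCTG on the other strand. Id2, Id3 and Id4 are shown because they varied together between experiments, and Msx1 and Smad6 because they changed most firmly between the GapmeRs.
Id2, chr12:25096043-25096342, minus strand: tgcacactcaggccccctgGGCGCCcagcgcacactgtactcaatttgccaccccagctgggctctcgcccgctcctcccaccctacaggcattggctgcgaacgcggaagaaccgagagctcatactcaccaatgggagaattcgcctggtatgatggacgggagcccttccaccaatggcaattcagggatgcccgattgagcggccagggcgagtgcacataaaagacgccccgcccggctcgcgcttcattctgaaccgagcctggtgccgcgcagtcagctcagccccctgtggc
Id3, chr4:136143572-136143871, plus strand: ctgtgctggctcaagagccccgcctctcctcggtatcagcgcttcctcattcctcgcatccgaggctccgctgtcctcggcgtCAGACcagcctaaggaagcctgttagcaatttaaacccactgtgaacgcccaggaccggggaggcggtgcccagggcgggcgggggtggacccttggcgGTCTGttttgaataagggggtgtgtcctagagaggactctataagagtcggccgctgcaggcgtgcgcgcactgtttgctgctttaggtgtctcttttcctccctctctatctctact
Id4, chr13:48260866-48261165, plus strand: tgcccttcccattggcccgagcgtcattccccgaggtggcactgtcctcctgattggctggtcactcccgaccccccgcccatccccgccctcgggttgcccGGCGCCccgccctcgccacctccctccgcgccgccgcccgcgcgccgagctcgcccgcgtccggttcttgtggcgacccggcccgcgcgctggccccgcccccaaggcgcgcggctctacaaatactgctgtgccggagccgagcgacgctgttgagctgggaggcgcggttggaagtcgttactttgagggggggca
Msx1, chr5:37824536-37824835, minus strand: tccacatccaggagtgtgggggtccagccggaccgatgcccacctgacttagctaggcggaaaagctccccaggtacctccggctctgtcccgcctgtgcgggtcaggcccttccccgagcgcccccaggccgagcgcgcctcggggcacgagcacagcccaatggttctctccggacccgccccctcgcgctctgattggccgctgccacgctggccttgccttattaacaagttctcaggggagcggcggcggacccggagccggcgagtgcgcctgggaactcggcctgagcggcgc
Smad6, chr9:64022010-64022309, minus strand: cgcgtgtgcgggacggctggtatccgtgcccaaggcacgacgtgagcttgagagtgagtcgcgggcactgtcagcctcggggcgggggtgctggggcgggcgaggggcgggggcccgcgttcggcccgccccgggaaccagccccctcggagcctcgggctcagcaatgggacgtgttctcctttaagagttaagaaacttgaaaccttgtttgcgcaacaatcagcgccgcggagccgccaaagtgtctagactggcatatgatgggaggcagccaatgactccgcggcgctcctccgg

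The Id2 window held GGCGCC with its first base at position -231 relative to the start, and the Id4 window held it at position -148. The Id3 window held CAGAC or its reverse complement at positions -167 and -68. Neither motif was found in the windows of Msx1 and Smad6, or in those of Msx2 and Bmp4, and no matches overlapped. Among 32851 RefSeq promoters of the same length, 11.9% held GGCGCC and 49.6% held CAGAC, so neither motif is rare. These matches describe letters in a window and do not show binding. Promoters of Id1, Smad7 and Bambi are not printed.

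Values are quantile-normalized signals, in arbitrary units that are comparable between arrays for 1 probe but not between probes. Signals under 20 were set to 20, so 20 marks a probe at the floor. Between 43.7% and 53.3% of all probes were well above background per array, which is the scanner software's test against local background. No spot was saturated. Of the 11 member probes, 7 were well above background on all 6 arrays, namely those of Id1, Id2, Id3, Id4, Msx1, Smad6 and Smad7. A probe was tested with limma if its mean reached 50 in either group, which left 30990 probes overall and 8 of the 10 genes. Bmp4 and Bambi did not reach this level. Log2 differences are GapmeR Ntep minus GapmeR control, and a called difference has a Benjamini-Hochberg adjusted p under 0.05 over all tested probes.

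The probe for Ntep itself (A630089N07Rik in the files, chr16:98283712-98283771 in mm9) checks the labels. It gave 472, 91.5 and 226 on the arrays labelled GapmeR Ntep (experiments 1, 2 and 3) and 271, 272 and 361 on the matching control arrays. In experiment 1 the array labelled GapmeR Ntep was thus the higher of its pair, against its label, and in the other experiments it was the lower. The log2 difference of -0.48 (SE 0.58) was not called by limma (adjusted p = 0.632). Groups are therefore named by the label of the arrays throughout, and the members' values without experiment 1 are given below. The study reports, by qPCR, lower Ntep under GapmeR Ntep. In experiment 1 the log2 difference was 1.03 for Msx1, -1.91 for Smad6, -2.98 for Smurf2 and -1.71 for Tcf4. Each had the sign of the other experiments, as had Tcf12 and Atoh8. Id2 (-0.40) and Id3 (-0.18), which were not called, had the opposite sign to the other experiments. The called genes were picked over all arrays, experiment 1 included. Whether the label in experiment 1 is right was not tested.

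**Figure D1:**
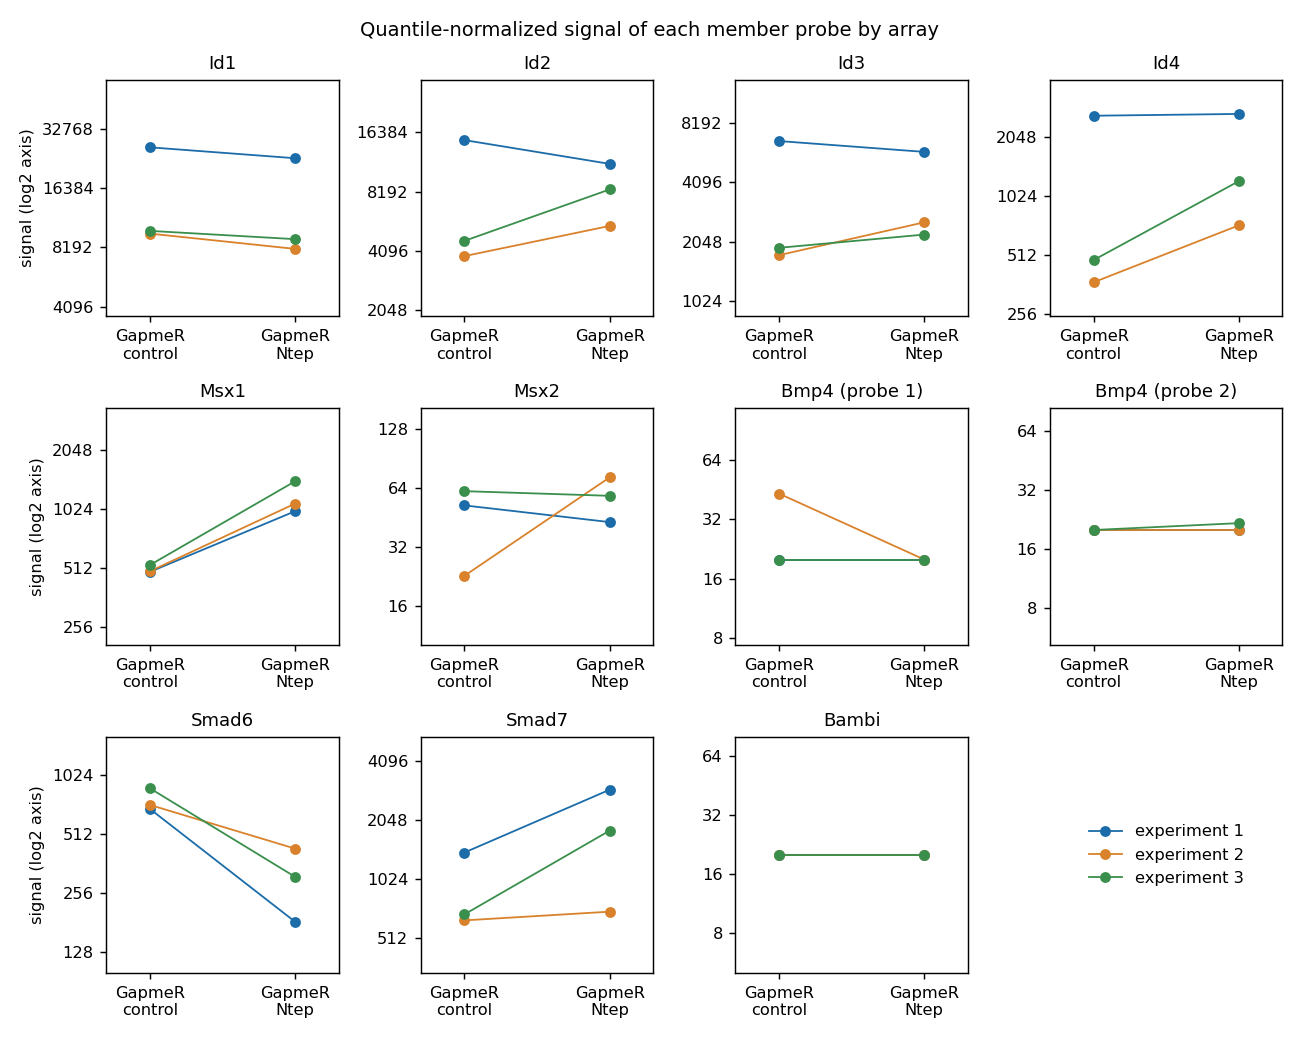
Quantile-normalized signal (log2 axis, arbitrary units, each panel with its own range) of the 11 member probes on the 6 arrays, with the 2 arrays of an experiment joined by a line. All 3 lines rise for Msx1 and all 3 fall for Smad6, the 4 Id genes are highest in experiment 1 under both GapmeRs, and Bmp4 and Bambi lie at or near the floor of 20.

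Of the 8 tested genes, Msx1 had a higher signal under GapmeR Ntep and Smad6 a lower one, and none of the 4 Id genes was called. Msx1 was the single gene called by the unpaired limma fit (1 higher, 0 lower). Among all tested probes, 2.09% were called higher and 3.21% lower, and 1 call among 8 genes is too few to set against these shares. At an unadjusted p under 0.05, 1 member was higher (Msx1) and 1 lower (Smad6). No share of all tested probes is given at that limit. The methods' t-test after adjustment called 0 members. At the study's own limits (2-fold or more, unadjusted p under 0.01) applied to the limma fit, Msx1 passed as higher and Smad6 as lower. Of all tested probes, 3.08% passed as higher and 5.06% as lower in that fit. With the methods' t-test in place of limma, Msx1 still passed these limits and Smad6 did not. With experiments as blocks the same limma test called Msx1 higher and Smad6 lower, where 6.54% of tested probes were called higher and 7.31% lower. The median log2 difference over the 8 genes was 0.38, with 6 genes above 0 and 2 below, against 0.06 over all tested probes. By experiment the median was -0.18, 0.53 and 0.55 (SD 0.42 over the 3 experiments), so this shift was not present in experiment 1. Without both arrays of experiment 1, an alternative chosen after seeing the data, the median was 0.73. Msx1 then had a log2 difference of 1.28 (limma adjusted p = 0.0592) and Smad6 one of -1.14 (limma adjusted p = 0.0819).

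Msx1 encodes a homeobox repressor that keeps mesenchymal progenitors undifferentiated, and its probe lies at chr5:38212305-38212364 in mm9. It gave 995, 1088 and 1413 on the arrays labelled GapmeR Ntep (experiments 1, 2 and 3) and 489, 492 and 530 on the control arrays. Every array labelled GapmeR Ntep was above every control array, and the control arrays were nearly equal. The mean was 1165 ± 219 under GapmeR Ntep and 504 ± 22.6 under GapmeR control (± SD over 3 arrays). The log2 difference was 1.19 (SE 0.19, 95% CI 0.73 to 1.66), a 2.29-fold higher geometric mean, with a limma adjusted p of 0.0335. With experiments as blocks the limma adjusted p was 0.0337, and the differences within experiments were 1.03, 1.14 and 1.42. The call depended on having all 6 arrays, since without any 1 of them the limma adjusted p rose to between 0.0524 and 0.147. The log2 difference then stayed between 1.04 and 1.31, with an unadjusted limma p from 0.00105 to 0.00466. Calls also became fewer over all tested probes, from 5.3% to between 0% and 4.62%. Msx1 was also not called without the arrays of experiment 1, or without those of experiment 2 or 3. The share of all tested probes called was then 2.86%, 0% and 0%.

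Msx2 encodes the related homeobox factor best known from bone and skull development. Its probe (chr13:53562318-53562377 in mm9) gave 43.0, 72.6 and 58.5 on the arrays labelled GapmeR Ntep and 52.3, 22.9 and 61.8 on the control arrays. It was well above background on 1 array labelled GapmeR Ntep and on no control array. The groups overlapped, and the signal was higher under GapmeR Ntep in experiment 2 only. No fold is given for this probe, because most of its values lie at background in both groups (limma adjusted p = 0.552 for the measured values). The direction was not fixed either, since the log2 difference was -0.18 without experiment 2.

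Smad6 encodes an inhibitory Smad that blocks the BMP branch of the pathway, by competing with Smad4 and by binding type I receptors. Its probe (chr9:63800980-63801039 in mm9) gave 183, 431 and 309 on the arrays labelled GapmeR Ntep (experiments 1, 2 and 3) and 686, 719 and 873 on the control arrays. Every array labelled GapmeR Ntep was below every control array, and the array of experiment 1 was the lowest. The mean was 308 ± 124 under GapmeR Ntep and 759 ± 100.04 under GapmeR control (± SD over 3 arrays). The log2 difference was -1.38 (SE 0.34, 95% CI -2.20 to -0.56), so that the geometric mean was 0.384 of that in controls. The unpaired limma fit did not call it (adjusted p = 0.0703), and the fit with experiments as blocks called it narrowly (limma adjusted p = 0.0496). Within experiments the log2 differences were -1.91, -0.74 and -1.50.

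Smad7 encodes the inhibitory Smad that dampens both TGF-β and BMP signalling, by recruiting ubiquitin ligases to the receptors. It gave 2915, 699 and 1806 on the arrays labelled GapmeR Ntep (experiments 1, 2 and 3) and 1397, 631 and 677 on the control arrays. The array labelled GapmeR Ntep was the higher of the pair in each experiment, but the groups overlapped, because the control of experiment 1 exceeded the GapmeR Ntep array of experiment 2. The log2 difference of 0.87 (SE 0.59, 95% CI -0.57 to 2.32) was not called (limma adjusted p = 0.407, and 0.123 with experiments as blocks). The differences within experiments were 1.06, 0.15 and 1.42. Without both arrays of experiment 1 the log2 difference was 0.78 (limma adjusted p = 0.384). Smad6 and Smad7, both inhibitory Smads, thus had differences of opposite sign, of which the fall of Smad6 was called with blocks and the value of Smad7 was not.

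An exact permutation test over the 6 arrays gave a two-sided p of 0.1 for Msx1 and for Smad6, the smallest value that 3 against 3 arrays allow. These were the only members whose groups did not overlap, 1 higher and 1 lower. Among all tested probes, 17% had non-overlapping groups with GapmeR Ntep higher and 15.1% with GapmeR Ntep lower, so 1 gene of 8 in each direction lies near that background. Of the 8 genes, Id4, Msx1 and Smad7 were higher in all 3 experiments and Id1 and Smad6 lower in all 3, where 32.4% of tested probes were higher and 26.7% lower in every experiment. The log2 difference of Msx1 lay at percentile 95.4 of all tested probes and that of Smad6 at percentile 5.4.

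**Figure D2:**
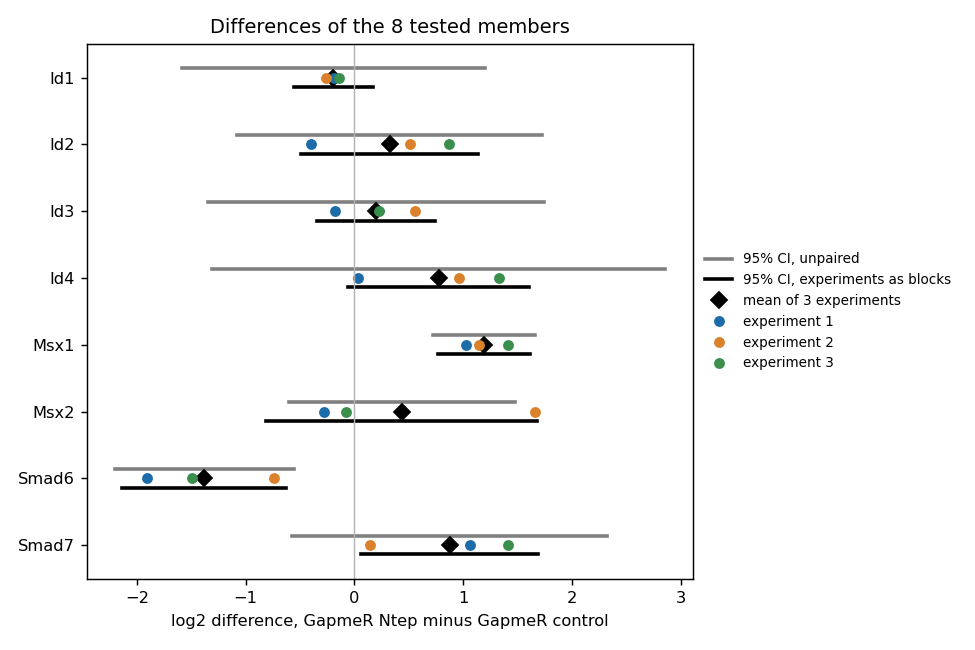
Log2 difference (GapmeR Ntep minus GapmeR control) of the 8 tested genes, with each experiment as a colored point, their mean as a diamond and the 95% CI of limma without (gray) and with (black) experiments as blocks. Both intervals exclude 0 for Msx1 and Smad6, the blocked interval alone excludes 0 for Smad7 (limma adjusted p = 0.123), and both include 0 for the Id genes and Msx2.

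The 4 Id genes, which were measured clearly on every array, differed more between experiments than between GapmeRs. Their log2 differences ranged from -0.19 for Id1 to 0.78 for Id4. Experiment 1 stood apart under both GapmeRs.

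Id1 encodes the Id protein most often used as a readout of BMP signalling. Its probe (chr2:152563083-152563142 in mm9) gave 23256, 8043 and 9014 on the arrays labelled GapmeR Ntep (experiments 1, 2 and 3) and 26425, 9620 and 9932 on the control arrays. The array labelled GapmeR Ntep was slightly the lower of the pair each time, while both arrays of experiment 1 were well above the other 4. The log2 differences within experiments were -0.18, -0.26 and -0.14. Their mean of -0.19 (SE 0.57, 95% CI -1.59 to 1.20) was not called by limma (adjusted p = 0.856). The small decrease was similar in the 3 experiments, and with experiments as blocks the limma adjusted p was 0.357, or 0.088 where the variance prior was also estimated over all probes.

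Id2, which holds back differentiation in many tissues and binds E proteins, was measured at chr12:25778904-25778963 in mm9. It gave 11341, 5484 and 8407 on the arrays labelled GapmeR Ntep and 14983, 3851 and 4604 on the control arrays. Experiment 1 was again the highest under both GapmeRs, and the sign of the difference turned between experiments, with -0.40 in experiment 1 against 0.51 and 0.87 in the others. The mean log2 difference was 0.33 (SE 0.58, 95% CI -1.08 to 1.73, limma adjusted p = 0.751).

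Id3, a close relative of Id1 with which it shares many functions, was measured by a probe placed at chr4:135700075-135700249 in mm9. It gave 5855, 2566 and 2223 on the arrays labelled GapmeR Ntep and 6646, 1747 and 1904 on the control arrays. The pattern was that of Id2, with the control array the higher in experiment 1 and the lower in the others. The mean log2 difference was 0.20 (SE 0.63, 95% CI -1.35 to 1.74, limma adjusted p = 0.868).

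Id4, known for its roles in neural and mammary progenitors, was measured at chr13:48358668-48358727 in mm9. It gave 2669, 724 and 1215 on the arrays labelled GapmeR Ntep and 2614, 372 and 482 on the control arrays. The arrays of experiment 1 were nearly equal, and in the other experiments the array labelled GapmeR Ntep was clearly the higher. The differences within experiments were 0.03, 0.96 and 1.33 on the log2 scale. Their mean of 0.78 (SE 0.85, 95% CI -1.31 to 2.86) was not called (limma adjusted p = 0.598, and 0.157 with experiments as blocks). The unpaired intervals of the 4 Id genes do not exclude a 2-fold change in either direction. With experiments as blocks the 95% CI was -0.56 to 0.17 for Id1, -0.49 to 1.14 for Id2, -0.35 to 0.74 for Id3 and -0.05 to 1.61 for Id4. Without both arrays of experiment 1 the log2 differences were -0.19 (Id1), 0.68 (Id2), 0.38 (Id3) and 1.16 (Id4). None was called, with limma adjusted p of 0.427, 0.206, 0.212 and 0.122.

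The separation of experiment 1 was noticed after the values had been seen and is given as a description. For all 4 Id genes, and for none of the other 4 tested genes, both arrays of experiment 1 were above the other 4 arrays. Of all tested probes, 12.4% had this order. The order was not particular to the Id genes. In the pathway list described below, Smad1, Fst, Pmepa1, Gata3 and Nedd4l were among the genes with it, and Smurf2 among those without it. Among the control arrays, experiment 1 exceeded the mean of experiments 2 and 3 by 1.43 (Id1), 1.83 (Id2), 1.87 (Id3) and 2.63 (Id4) on the log2 scale. The median over all tested probes was 0.03, and the Id genes lay at percentiles 97.1, 98.4, 98.5 and 99.4. Among the arrays labelled GapmeR Ntep the same quantity was 1.45, 0.74, 1.29 and 1.51, at percentiles 96.4, 87.4, 95.5 and 96.6. It was thus smaller than among the controls for Id2, Id3 and Id4 and about equal for Id1. Smad7 had values of 1.10 among the controls (percentile 94.8) and 1.38 among the arrays labelled GapmeR Ntep (percentile 96).

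The highest of the 3 control arrays exceeded the lowest 2.75-fold for Id1, 3.89-fold for Id2, 3.80-fold for Id3 and 7.03-fold for Id4. The median of this span over all tested probes was 1.44-fold. For Msx1 the control span was 1.08-fold, for Smad6 1.27-fold, for Smad7 2.21-fold and for Msx2, near background, 2.69-fold. Among the arrays labelled GapmeR Ntep the order differed, with 4.17-fold for Smad7, 3.69-fold for Id4, 2.89-fold for Id1, 2.63-fold for Id3, 2.36-fold for Smad6, 2.07-fold for Id2, 1.69-fold for Msx2 and 1.42-fold for Msx1, against a median of 1.56-fold. In experiment 1, Msx1 and Smad6 were not raised: the log2 values against the other experiments were -0.06 and -0.21 among the controls and -0.32 and -0.998 among the arrays labelled GapmeR Ntep. What differed between the cultures of experiment 1 and the others was not tested.

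**Figure D3:**
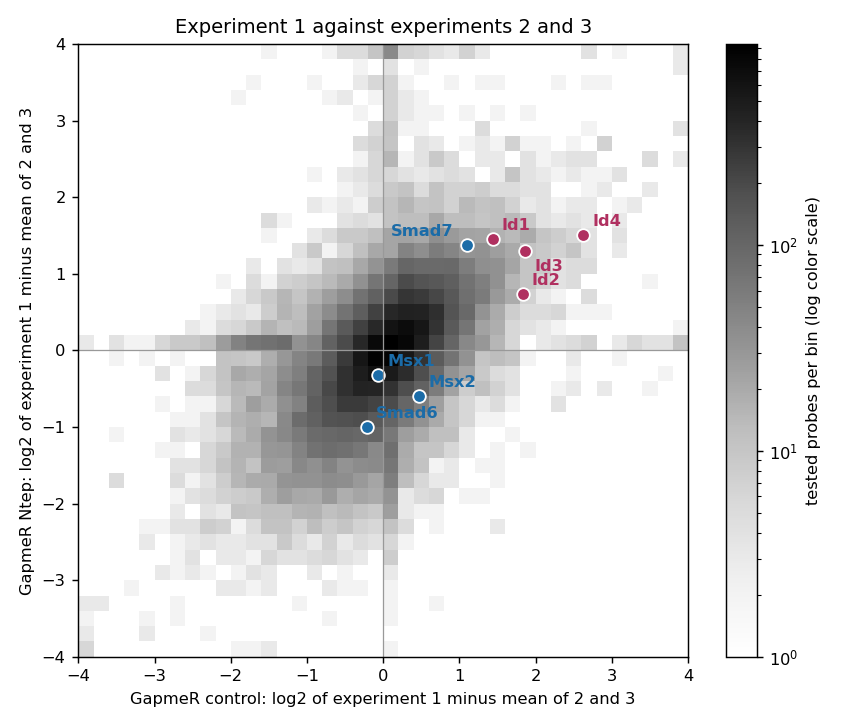
Log2 signal in experiment 1 minus the mean of experiments 2 and 3, for the control arrays (horizontal) and the arrays labelled GapmeR Ntep (vertical), with the 8 tested genes over a gray density of the 30990 tested probes in bins (values past the axis limits are collected in the outermost bins). The Id genes (red) and Smad7 lie to the upper right, with Id4 at 2.63 and 1.51, while Msx1, Msx2 and Smad6 lie below 0 on the vertical axis.

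Bmp4, the ligand of the list, was at the floor on nearly all arrays. One of its probes gave 43.3 on the control array of experiment 2 and 20 on the other 5 arrays. The other gave 21.7 on the GapmeR Ntep array of experiment 3 and 20 elsewhere. Neither was well above background on any array, so no difference could be measured.

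Bambi, a transmembrane pseudoreceptor that lacks a kinase domain and interferes with BMP and TGF-β receptor complexes, was at 20 on all 6 arrays. Of the 3 feedback inhibitors among the 10 genes, the pseudoreceptor was therefore not detected, and the inhibitory Smads were.

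The genes whose profile over the 6 arrays was most like that of Id1, among 22649 probes well above background on every array, were Camk2d (Pearson r = 0.998), Luc7l2 (0.998) and Setd5 (0.996). For Msx1 they were a probe for a long intergenic noncoding RNA on chromosome 17 (r = 0.998), Rrp1b (0.997) and Taco1 (0.997). Rrp1b was higher by a log2 difference of 0.89 (limma adjusted p = 0.043) and Taco1 by 1.04 (limma adjusted p = 0.0395). With 6 arrays that share experiments and so many probes, correlations of this size are a description only.

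A list of 82 other genes of the pathway was examined by role, and 56 of them were tested. In all, 0 were called higher and 4 lower by the unpaired limma fit, with 28 genes above 0, 28 below and a median log2 difference of 0.01. At an unadjusted p under 0.05 the counts were 10 higher and 7 lower, and no share of all tested probes is given at that limit. With experiments as blocks 4 were called higher and 5 lower. The blocked counts of 56 genes lie near the shares of all tested probes, which were 6.54% higher and 7.31% lower with blocks. Without blocks those shares were 2.09% and 3.21%, so the 4 lower genes were above theirs and the 0 higher below. No test compared the counts with the shares. The genes called by the unpaired fit were Smurf2, Atoh8, Tcf4 and Tcf12. For 23 listed genes the brightest probe was not well above background on any array.

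Few ligands were measurable: 5 of 13 were tested, with differences from -1.04 to 0.59, and 6 were never above background. Bmp8a, at 0.59 (limma adjusted p = 0.142), was the 1 ligand well above background on all arrays. Bmp5, well above background on 5 of 6 arrays, had a larger difference of -1.04 (limma adjusted p = 0.215). Bmp1, a protease that cleaves the antagonist chordin, had a log2 difference of -0.52 (limma adjusted p = 0.195) at its brightest probe. Its other probes gave -1.07 (limma adjusted p = 0.053, and 0.0495 with experiments as blocks) and -0.53 (limma adjusted p = 0.381). The protease Tll1 was well above background on 1 array per group, so its difference is not given. By its brightest probe, no ligand or protease was called with or without blocks.

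Receptors and coreceptors were better represented, with 9 of 11 tested and none called. Bmpr1a, the main type I receptor, gave 6938, 7179 and 7449 on the arrays labelled GapmeR Ntep and 10914, 12058 and 10957 on the control arrays. The groups did not overlap, yet the log2 difference of -0.65 missed the threshold (limma adjusted p = 0.0637). Rgmb, a coreceptor, had a difference of 0.48 (limma adjusted p = 0.134).

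The Smads that carry the signal, Smad1, Smad4, Smad5 and Smad9, were all tested, and none was called with or without blocks. Their log2 differences ran from -0.27 for Smad9 to 0.52 for Smad1. Smad1 was highest in experiment 1 under both GapmeRs, at 2651 and 1959, where the other 4 arrays lay between 770 and 1398. Within experiments its log2 differences were 0.44, 0.33 and 0.80 (limma adjusted p = 0.558, and 0.109 with experiments as blocks).

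Secreted antagonists gave 9 tested genes of 16, and none was called. Nbl1, which binds BMPs outside the cell, had the largest difference at 4.22 (limma adjusted p = 0.197), but the GapmeR Ntep array of experiment 1 decided its size, with 118730 against 1739 and 1432 in the other experiments. Its control arrays gave 575, 308 and 259, and the log2 differences within experiments were 7.69, 2.50 and 2.47. Fst, which encodes follistatin, had a difference of 1.08 (limma adjusted p = 0.436) and Dand5 of 0.93 (limma adjusted p = 0.121). For Chrd, which encodes chordin, the brightest probe gave 0.08 (limma adjusted p = 0.824), while a dimmer one, not well above background on any array labelled GapmeR Ntep, was called lower (limma adjusted p = 0.0412).

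Among the 9 intracellular inhibitors, all tested, Smurf2 fell. Smurf2 is a ubiquitin ligase that targets Smads and, with Smad7, the receptors. It gave 564, 1176 and 939 on the arrays labelled GapmeR Ntep and 4451, 3406 and 2951 on the control arrays, with no overlap. The log2 difference was -2.06 (SE 0.32, limma adjusted p = 0.0324). Its 2 dimmer probes gave -1.63 and -2.24 and were not called (limma adjusted p = 0.0699 and 0.0671). Skil, a corepressor of Smads, had 2 probes that disagreed in size. The brighter gave 0.34 (limma adjusted p = 0.588), and the dimmer, also well above background on all arrays, gave 2.76 (limma adjusted p = 0.0869, and 0.031 with experiments as blocks). Smurf1, the ligase related to Smurf2, had a difference of 0.85, which was not called (limma adjusted p = 0.174).

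Of 20 other BMP-responsive transcription factors, 12 were tested, with 8 above 0 and 4 below. Atoh8, a bHLH factor induced by BMPs in several tissues, fell by 1.21 on the log2 scale (limma adjusted p = 0.0429). It gave 197, 239 and 161 on the arrays labelled GapmeR Ntep and 552, 389 and 439 on the control arrays. Gata2 and Dlx2 had differences of 1.12 and 0.90, and these were called with experiments as blocks (limma adjusted p = 0.0347 and 0.0498) but not without (0.112 and 0.108).

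E proteins are the bHLH factors that Id proteins bind, and 6 of the 7 listed E proteins and bHLH partners were tested, with a median log2 difference of -0.66. Tcf4 and Tcf12 fell. Tcf4 gave 4848, 7604 and 6383 on the arrays labelled GapmeR Ntep and 15878, 17274 and 13407 on the control arrays, a log2 difference of -1.32 (limma adjusted p = 0.0361). Tcf12 gave 22764, 24796 and 23269 against 49993, 46881 and 43358, a log2 difference of -0.98 (limma adjusted p = 0.0324). For both genes all control arrays were above all arrays labelled GapmeR Ntep. The dimmer probes of Tcf4 and Tcf12 gave -2.11 and -0.79 and were not called (limma adjusted p = 0.0968 and 0.180). That of Tcf4 was well above background on only 1 of 3 arrays labelled GapmeR Ntep, so background limits the size of its difference. Tcf3, the third E protein, had a difference of -0.47 (limma adjusted p = 0.239) and Twist2, which pairs with E proteins, one of -0.85 (limma adjusted p = 0.0939).

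With blocks the further calls were Tob2 (0.78, limma adjusted p = 0.0411) and Dand5 (0.93, 0.0379) as higher and Bmper (-1.38, 0.0316) as lower, beside Gata2 and Dlx2. Bmper, Tob2, Gata2 and Dlx2 are named because the blocked fit called them, which was seen with their values.

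**Figure D4:**
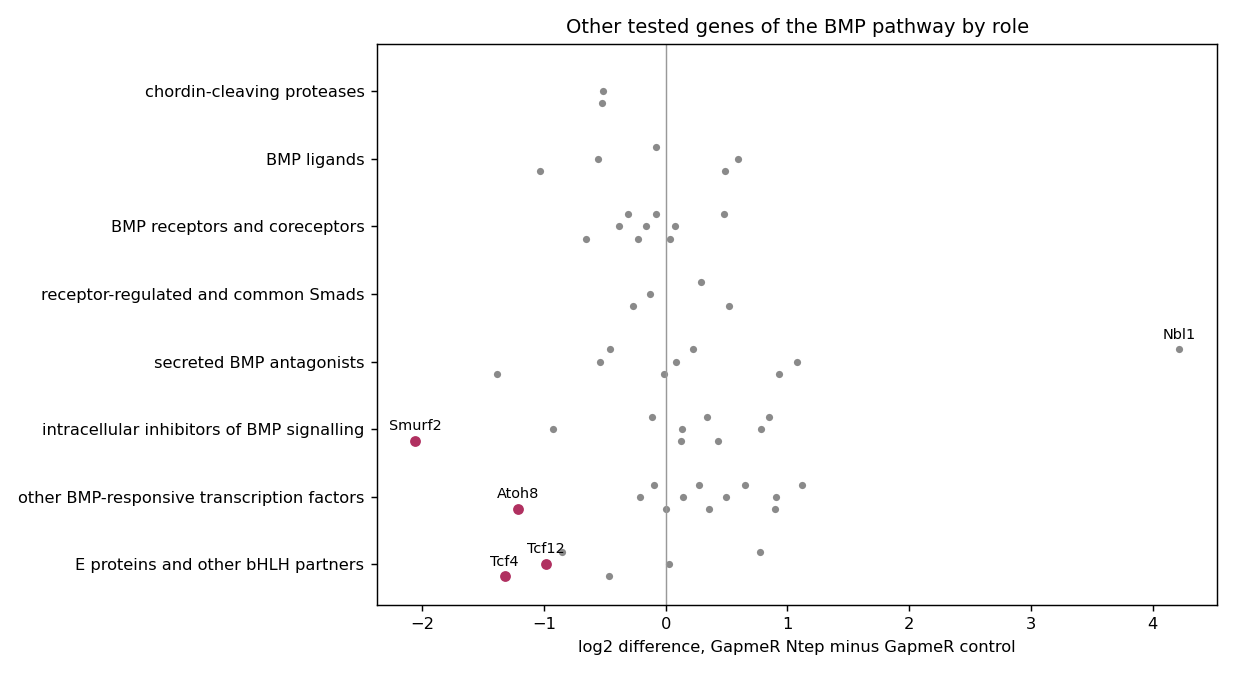
Log2 difference (GapmeR Ntep minus GapmeR control) of the 56 tested genes of the pathway list, grouped by role, with 1 point per gene (brightest probe) and the 4 called genes in red. The called genes, Smurf2, Atoh8, Tcf4 and Tcf12, lie between -2.06 and -0.98, and Nbl1 stands out at 4.22 without being called.

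The fibroblast identity of the cells was plain in the markers, all 10 of which were tested, with 9 below 0 and 1 above 0 (median -0.45). None was called by limma, and 3 were lower at an unadjusted p under 0.05, a limit for which no share of all tested probes is given. Their summed signal, which the brightest probes decide, was 644898 to 830934 on the arrays labelled GapmeR Ntep and 923457 to 1008638 on the control arrays. Of 8 macrophage markers 6 were tested and Cd68 was called higher, at 1.21 (limma adjusted p = 0.0287), with a summed signal of 42986 to 75392 against 21070 to 27731. At an unadjusted p under 0.05, 4 macrophage markers were higher and 0 lower, with Csf1r at 3.19, Itgam at 1.26 and Cd14 at 1.11 beside Cd68. With experiments as blocks, limma called these 4 higher and Aif1 lower, at -1.28 (adjusted p = 0.0421). A dimmer probe of Itgam gave -0.03, one of Cd68 gave 0.68 and one of Csf1r gave 0.44, none of them called (limma adjusted p = 0.956, 0.143 and 0.267). For the brightest Csf1r probe the groups overlapped. The defining leukocyte and macrophage markers Ptprc and Adgre1 were never above background. Sums of 6 epithelial markers were 5985 to 7735 against 4441 to 6979, and those of 6 endothelial markers 837 to 992 against 793 to 1014, with none called. Epithelial and endothelial lists each had 1 gene higher at an unadjusted p under 0.05. The part of these shifts in the values above was not tested, and in a bulk sample fewer cells and less RNA per cell cannot be told apart.

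**Figure D5:**
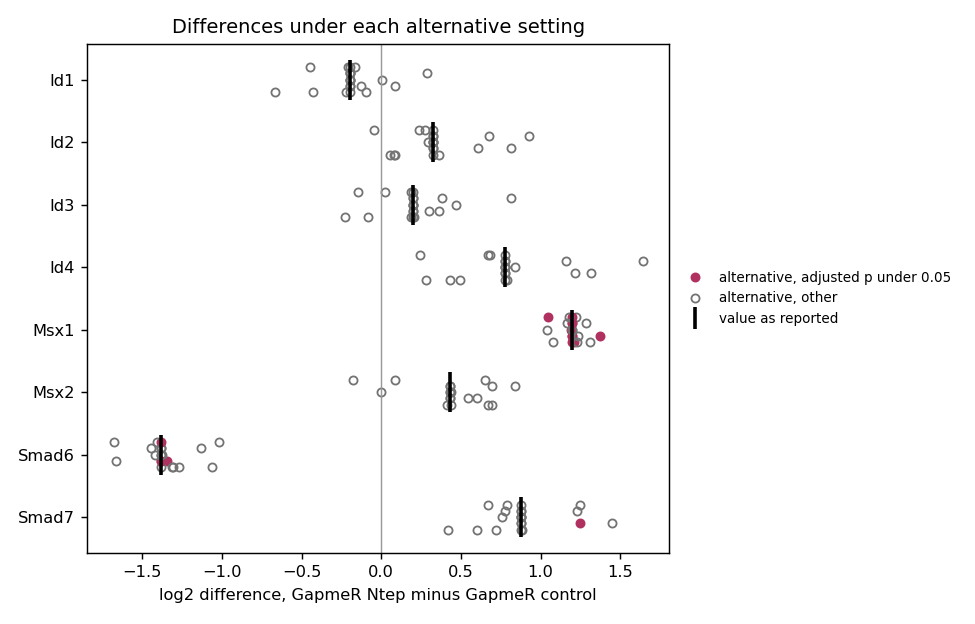
Log2 difference (GapmeR Ntep minus GapmeR control) of the 8 tested genes under each alternative setting (circles, filled where the adjusted p was under 0.05) beside the reported value (bar). Msx1 stayed between 1.04 and 1.37 and Smad6 between -1.68 and -1.02, while Id1, Id2, Id3 and Msx2 took both signs.

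Over 21 alternative settings, the difference of Msx1 was positive in each and called in 9, with an adjusted p (limma or the methods' t-test) from 0.00334 to 0.375. That of Smad6 was negative in each and called in 3, with values from -1.68 to -1.02. These were experiments as blocks, only probes above background on every array, and array weights. They called 13.8%, 11% and 33.1% of all their tested probes, against 5.3% as reported. Smad7 stayed above 0, between 0.42 and 1.45, and was called in 1, that with array weights. Id4 stayed above 0, between 0.24 and 1.64, and was called in none, as were Id1, Id2, Id3 and Msx2. Msx2 was tested in only 19 settings. It dropped out without GapmeR Ntep replicate 2 and where only probes above background on every array were kept.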

How the data were processed

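RNA of 3T3 cells was measured on 6 one-color Agilent mouse arrays. The authors deposited scanner intensities per array, extracted with Feature Extraction 10.7.3.1 (per the labels) and background subtracted but not normalized between arrays, and a table of quantile-normalized intensities with a floor of 20. Here the spots of a probe were averaged and the arrays quantile normalized. Values below 20 were raised to 20 and taken to log2, and limma 3.58.1 (R 4.3.3) compared the groups. Tested were probes whose mean reached 50 in either group, unpaired as in the study, with the variance prior estimated over the tested probes and Benjamini-Hochberg adjustment over all of them. The brightest probe stands for a gene. Groups come from the titles of the samples. The study's sample records pair the arrays by culture day. The correlation of residuals was 0.466, 0.300 and 0.254 for paired arrays and between -0.327 and 0.126 for all others, so a fit with experiments as blocks was run too. With 3 arrays per group, their number limits the precision. Signal and coordinates are those of the files (mm9), and exon annotation of probes was not analysed here.

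The members, the pathway and marker lists and the tests were chosen with earlier results of these data known. Named are all members, the Ntep probe, of each role in the pathway list the called genes and otherwise at most 3 with the largest differences on probes well above background on all arrays, and the 3 genes most like Id1 and Msx1. Not every gene this rule covers is named. Alternatives were other scalings, background correction, floors and filters, the authors' normalized values, outlier spots left out, array weights, the methods' t-test, each array left out and, chosen after seeing the data, both arrays of an experiment left out and a variance prior over all probes. The normalization and the unpaired fit were tested on simulated data with independent arrays and no difference between experiments. The fit with blocks was not tested in that way.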

Additional observations from a re-analysis of the deposited data

How the results depend on the processing

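The count of members called by adjusted p (1) became 2 with the replicate block by experiment (Msx1 and Smad6), 2 where only probes above background on every array were kept (Msx1 and Smad6) and 3 with array weights (Msx1, Smad6 and Smad7). It was 0 with the methods' t-test, without the intensity filter, with the block and a variance prior over all probes, and without both arrays of any 1 experiment. It was 0 to 0 when each array was left out in turn. The count at the study's limits (2) was 1 with the methods' t-test, without the intensity filter, with a prior over all probes (with or without the block) and without experiment 1, and 0 without experiment 2 or experiment 3. It was 1 to 2 without single arrays, with Smad6 lost without GapmeR Ntep replicate 3 or any 1 control array. The members' median of 0.38 ranged from -0.024 (without GapmeR control replicate 2) to 0.87 (without GapmeR control replicate 1). In the pathway list, 4 genes were called as reported. The count was 2 with 75th percentile scaling (Smurf2 and Tcf4), 19 with array weights, 9 with the block by experiment, 2 with the block and a prior over all probes (Hey1 and Tob2), 1 without experiment 1 (Nbl1), 0 without experiment 2 or 3, and 0 to 3 without single arrays. The methods' t-test and the fit without the intensity filter each called 3 genes (Bmpr1a, Hey1 and Tcf12), so that Smurf2, Atoh8 and Tcf4 lost their calls. The prior over all probes without the block called 4 (Bmpr1a, Hey1, Tcf12 and Tcf4). Over all probes tested in each setting, 13.8% were called with the block and 33.1% with array weights, against 5.3% as reported. Where only probes above background on every array were kept, 11% were called. The share was 0.92% with the methods' t-test, 1.01% without the intensity filter, 2.86% without experiment 1 and 0% without experiment 2 or 3. Without single arrays it was 0% to 4.62%. The pairing changed no other call of a member.

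Differences of members that were not called changed sign in places. Id1 reached 0.29, 0.09 and 0.0064 without GapmeR control replicate 1, GapmeR Ntep replicate 2 and GapmeR Ntep replicate 3. Id2 reached -0.045 without GapmeR control replicate 2. Id3 reached -0.14, -0.08 and -0.23 without GapmeR control replicate 2, GapmeR control replicate 3 and GapmeR Ntep replicate 1. Msx2 reached -0.18 without experiment 2 and -0.0027 without GapmeR control replicate 2. Scaling to the 75th percentile moved the median of all tested probes from 0.06 to 0.22 and turned no member's sign. Without single arrays, Id1 ranged from -0.67 to 0.29, Id2 from -0.045 to 0.93, Id3 from -0.23 to 0.81 and Msx2 from -0.0027 to 0.70. Msx2 was not tested without GapmeR Ntep replicate 2. The causes were not tested. Omitting both arrays of an experiment and the wider variance prior were chosen after seeing the data. The background limits Msx2, Bmp4 and Bambi.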
